A study of Mus musculus with 12 samples.

Results

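The classical protein tyrosine phosphatases of the mouse are encoded by the Ptpn genes, whose products are non-receptor enzymes, and the Ptpr genes, whose products are receptor-type enzymes that span the membrane. The family was taken from the count files by name: every symbol that is Ptpn and a number, or Ptpr and a letter with or without a number, leaving out Ptpn14. This gave 37 genes of the 48576 symbols listed, 21 receptor-type and 16 non-receptor. The family was picked because Ptpre and Ptpn13 are among the genes that differed most between YAP livers and their controls, so the YAP values of those 2 genes are given as a description with no test. The other 35 genes came in by name alone.

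RNA of whole mouse liver was sequenced in 12 libraries. YAP livers came from Col-TRE-YAPS127A; Rosa26-LSL-rtTA mice that received AAV-TBG-Cre at 8 to 10 weeks of age, so that the hepatocyte promoter TBG set where Cre, and through it rtTA, was made. Doxycycline then switched on YAPS127A, a YAP that is not held back by Hippo phosphorylation, for 4 weeks in 3 livers and for 2 weeks in 2 livers. The 2 YAP control livers had the same transgenes without induction, and the same AAV age of 8 to 10 weeks is listed for them. MYC livers, 3 in number, were from LAP-tTA; TRE-MYC mice in which MYC was switched on in hepatocytes by taking doxycycline away at about embryonic day 8, with collection 4 weeks after birth. The 2 MYC controls carried LAP-tTA alone on the same doxycycline schedule, with collection also 4 weeks after birth.

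Protein tyrosine phosphatases remove phosphate from tyrosine and so set the output of receptor tyrosine kinases, Src family kinases, JAKs and cell adhesion complexes. Non-receptor members find their targets through SH2, FERM, PDZ or PEST regions. Receptor-type members carry adhesion-like ectodomains that bind matrix, proteoglycans or the same phosphatase on a neighbouring cell. In liver the family is best known for Ptpn1, which dephosphorylates the insulin receptor, and Ptpn11, which passes growth factor signals to Ras and MAP kinase.

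Library totals lay between 12511170 and 17690798 counts. Hepatocyte markers summed to between 34000 and 117000 CPM (counts scaled to library size with TMM factors) in the 12 libraries, but macrophage, endothelial and cholangiocyte markers were also counted in each one, so the libraries hold RNA of more cells than the hepatocytes named in the labels. Of the symbols of the transgenes, Yap1 differed by -0.19 (log2, YAP 4 weeks against YAP control, adjusted p = 0.372) and Myc by 1.21 (MYC against MYC control, adjusted p = 0.242); whether transgene reads count towards them is not given in the sources used here. By Xist and Y-linked genes, the 3 YAP 4-week libraries were female, YAP 2-week library 2 was female and library 1 male, and the YAP control, MYC and MYC control libraries were male. Female sex and 4 weeks of YAP therefore cannot be told apart, and YAP 2-week library 1 is the induced liver of the same sex as the controls. Skeletal muscle markers summed to 429 to 471 CPM in the YAP 2-week libraries and to at most 20.0 CPM elsewhere. TMM factors ran from 1.117 to 1.348 in YAP 4-week libraries, were 0.977 and 1.175 in YAP 2-week libraries, and were 0.743 and 0.742 in YAP controls. Mitochondrial transcripts took 7.67% to 11.65% of counts in YAP 4-week libraries, 13.92% and 10.19% in YAP 2-week libraries and 19.3% and 19.62% in YAP controls, and 15.13% to 20.81% in MYC libraries and 15.75% and 15.02% in MYC controls; their part in the results was not tested. Nothing in the labels says more of the livers than their numbers, so p-values measure the spread between these samples.

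Levels are ranked between genes only per kb of annotated exon. The sums and shares below are of CPM without regard to length, so long genes weigh more in them. Ptprf, the receptor phosphatase LAR, had the highest mean per kb in each of the 5 groups: 40.8 CPM per kb in YAP 4-week livers, 32.4 in YAP 2-week livers, 51.5 in YAP controls, 32.6 in MYC livers and 50.3 in MYC controls. Ptpn21 was second in YAP 4-week livers at 21.1 CPM per kb and stood at rank 13 in YAP controls at 5.5 CPM per kb. The summed level of the 37 genes was 1940 ± 56.9 CPM in YAP 4-week livers (SD, n = 3), 2010 ± 240 CPM in YAP 2-week livers (n = 2) and 2000 ± 7.07 CPM in YAP controls (n = 2). It was 1420 ± 161 CPM in MYC livers (n = 3) and 2010 ± 84.9 CPM in MYC controls (n = 2). Ptprd and Ptprf together held 32.0% ± 2.71 of that sum in YAP 4-week livers, 26.8% ± 2.19 in YAP 2-week livers and 46.5% ± 0.354 in YAP controls. Their share was 41.5% ± 1.78 in MYC livers and 45.2% ± 0.778 in MYC controls. The summed level of the induced YAP libraries, 1840 to 2180 CPM, spanned that of the controls. The share of these 2 genes was lower in every induced YAP library than in either control. The summed levels depend on the TMM scaling. Without it, the 37 genes held 0.211% to 0.258% of counts in YAP 4-week livers and 0.213% and 0.216% in YAP 2-week livers. They held 0.148% in both YAP controls. In MYC livers they held 0.145% to 0.163%, against 0.165% and 0.163% in MYC controls.

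**Figure D1:**
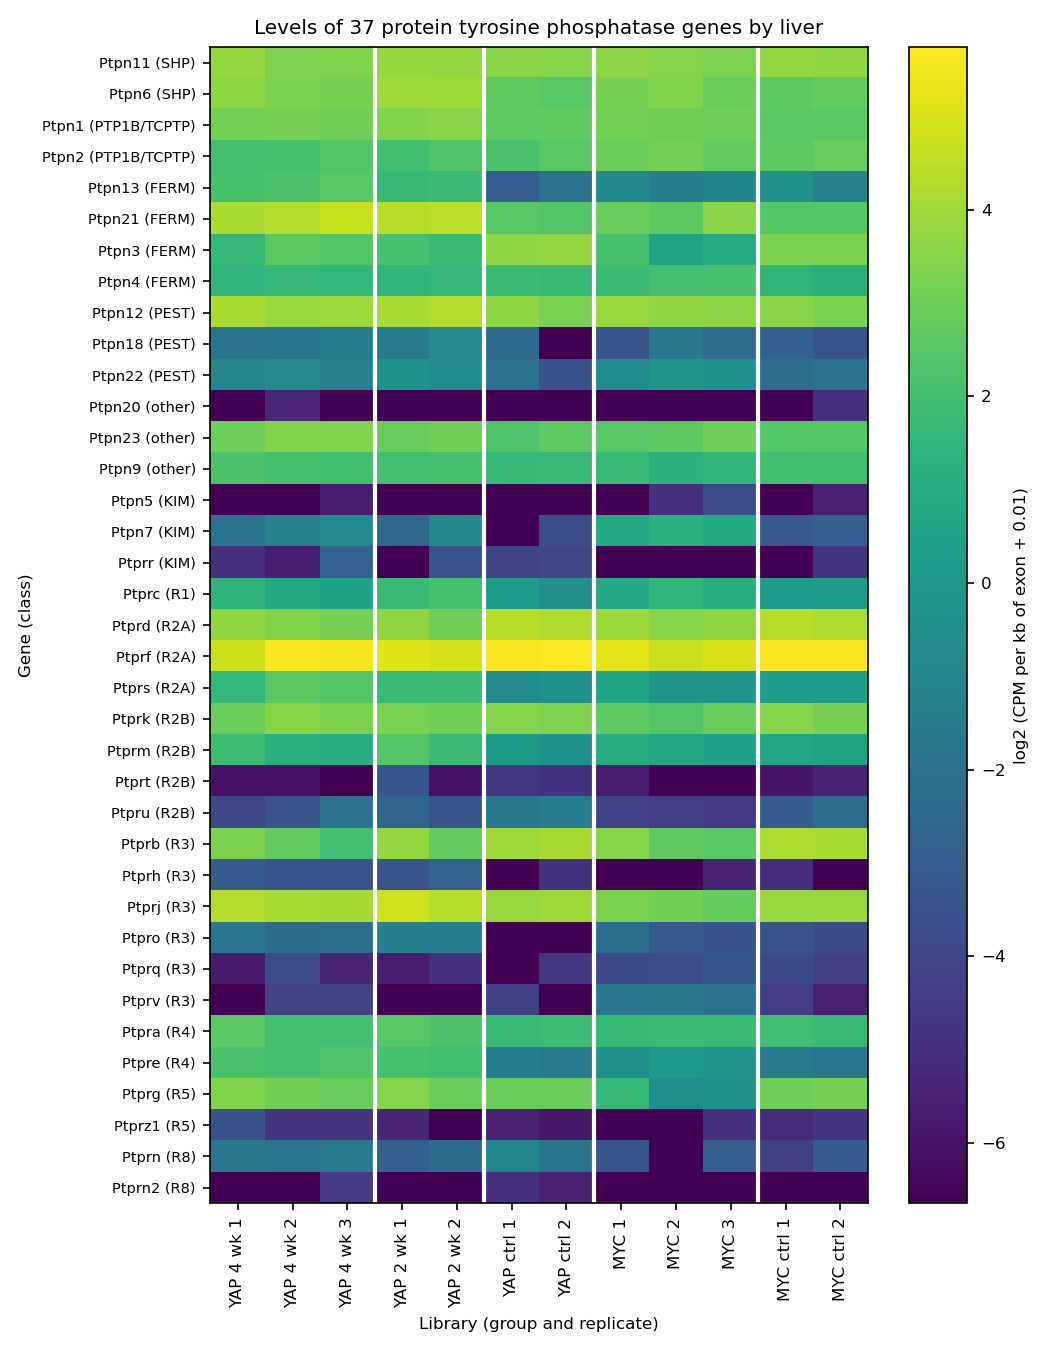
Level of each of the 37 phosphatase genes (rows, with subclass) in each of the 12 libraries (columns), as log2 of CPM per kb of exon plus 0.01. Ptprf is brightest throughout, Ptpn13 and Ptpre are bright in the 5 YAP libraries against the YAP controls, and Ptprg is dark in MYC libraries 2 and 3.

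Low counts removed 8 members before testing: Ptprt, Ptprz1, Ptprh, Ptpn5, Ptprq, Ptprr, Ptprn2 and Ptpn20. None of them reached more than 17 counts in a library. This left 29 tested members, 15 receptor-type and 14 non-receptor. Differences were tested with edgeR's quasi-likelihood test and p-values were adjusted over all 17964 tested genes, with a call at an adjusted p under 0.05. Fold changes are log2 values with their standard error (SE), first-named group over the other.

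With 4 weeks of YAP, 14 of the 27 members outside the pair that chose the family were called, 11 higher and 3 lower, beside 33.8% of all tested genes (18.1% higher and 15.7% lower). With 2 weeks, again 14 of 27 were called, 12 higher and 2 lower, beside 27.8% of all genes (15.1% higher and 12.7% lower). The median log2 fold change over the 27 was 0.46 at 4 weeks and 0.45 at 2 weeks, and over all tested genes 0.18 and 0.10. Since the family was chosen on these contrasts, nothing is read from those shares, and both times share the same 2 controls. Higher at both times were Ptpn1, Ptpn6, Ptpn7, Ptpn12, Ptpn21, Ptpn22, Ptprc, Ptprm, Ptpro and Ptprs. Ptpn23 was called higher at 4 weeks alone, and Ptpra and Ptprj at 2 weeks alone, which is no test of a difference between the times. Ptpn3 and Ptprd were lower at both times and Ptprb at 4 weeks. The 4-week count was 9 without YAP control library 1 (17.2% of all genes) and 7 without YAP control library 2 (17.1%). The 2-week count was 8 without YAP control library 2 (14.3%) and 9 without YAP 2-week library 2 (12.7%). Scaling by total counts in place of TMM raised the median of all genes by 0.73 at 4 weeks and 0.54 at 2 weeks. The split was then 16 higher and 0 lower at 4 weeks and 16 higher and 1 lower at 2 weeks. Of all genes, 7863 were then higher and 897 lower at 4 weeks (48.8% called), and 5228 and 979 at 2 weeks (34.6%).

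Ptpre encodes receptor-type phosphatase epsilon, the close relative of Ptpra, and both act on Src family kinases. Ptpre (chromosome 7, 135537481 to 135686293, plus strand, GRCm38) had 45.9, 42.5 and 53.7 CPM in YAP 4-week livers, 45.2 and 40.2 CPM in YAP 2-week livers, and 4.06 and 3.5 CPM in YAP controls. The 5 induced livers did not overlap the controls, and the male 2-week liver was as high as the female one. edgeR gave a log2 fold change of 3.64 ± 0.24 at 4 weeks and 3.49 ± 0.24 at 2 weeks. An antisense gene, 5830432E09Rik, shares 209 bases of exon with Ptpre and had at most 82 counts in a library; the strand setting of the counting is not given in the sources used here.

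Ptpn13 encodes a very large non-receptor phosphatase with a FERM domain and several PDZ domains. Ptpn13 (chromosome 5, 103425192 to 103598303, plus strand) had 53.9, 57.5 and 69.5 CPM in YAP 4-week livers, 38.5 and 42.4 CPM in YAP 2-week livers, and 1.45 and 2.86 CPM in YAP controls. Each 4-week liver was above each 2-week liver, and each of those above the controls. The YAP values of Ptpn13 also picked the family, so this order is a description only. edgeR gave a log2 fold change of 4.81 ± 0.37 at 4 weeks and 4.24 ± 0.37 at 2 weeks. Per kb, the mean was 4.98 CPM per kb in YAP 4-week livers and 0.178 CPM per kb in YAP controls, where Ptpn13 ranked 24 of the family.

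YAP acts on DNA through TEAD factors, whose core site is CATTCC, and MYC through the E-box CACGTG. The RefSeq promoters (GRCm38.p6, 250 bases before to 50 after a start, gene strand) of Ptpre and Ptpn13 are shown because those genes picked the family; both motifs were searched on both strands, as CATTCC or GGAATG and as CACGTG, and neither was found in them.
Ptpre first start, chr7:135537574-135537873, plus strand: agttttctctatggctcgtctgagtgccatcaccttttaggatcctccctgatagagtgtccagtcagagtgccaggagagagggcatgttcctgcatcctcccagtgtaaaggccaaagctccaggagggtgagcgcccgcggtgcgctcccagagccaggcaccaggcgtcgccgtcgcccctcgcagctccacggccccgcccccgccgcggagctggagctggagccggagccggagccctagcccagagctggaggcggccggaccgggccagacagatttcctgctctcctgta
Ptpn13, chr5:103424942-103425241, plus strand: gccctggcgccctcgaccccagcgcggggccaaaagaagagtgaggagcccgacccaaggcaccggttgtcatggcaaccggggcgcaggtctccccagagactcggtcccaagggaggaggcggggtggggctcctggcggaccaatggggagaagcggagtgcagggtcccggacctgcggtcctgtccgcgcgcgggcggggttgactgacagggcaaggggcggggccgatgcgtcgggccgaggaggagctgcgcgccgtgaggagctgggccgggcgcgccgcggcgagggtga
The other 2 Ptpre starts in the table also held neither motif. No match says only that these letters are not in these windows.

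Ptpn21 encodes a FERM-domain phosphatase that binds Src and the actin cytoskeleton, and Ptprs encodes receptor phosphatase sigma, which binds heparan and chondroitin sulfate proteoglycans. Both rose at both YAP times. Ptpn21 (chromosome 12, 98676741 to 98737405, minus strand) had 140, 156 and 203 CPM in YAP 4-week livers, 167 and 180 CPM in YAP 2-week livers, and 44.8 and 42.1 CPM in YAP controls. No induced liver was under 3 times either control. The log2 fold change was 1.94 ± 0.27 at 4 weeks (adjusted p = 0.000474) and 2.00 ± 0.29 at 2 weeks (adjusted p = 0.000695).

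Ptprs (chromosome 17, 56412426 to 56476483, minus strand) had 44.2, 92.0 and 80.4 CPM in YAP 4-week livers, 49.7 and 52.8 CPM in YAP 2-week livers, and 9.37 and 11.5 CPM in YAP controls. YAP 4-week library 1 was the lowest of the induced livers and still well above both controls. On the log2 scale Ptprs rose by 2.79 ± 0.35 at 4 weeks (adjusted p = 0.000272) and 2.30 ± 0.36 at 2 weeks (adjusted p = 0.00112). The calls of Ptpn21 and Ptprs at both times held when any 1 library was left out. Cholangiocyte markers, 9 genes, summed to 506 CPM in YAP 4-week library 1, to 3240 and 3340 CPM in libraries 2 and 3, to 645 and 1300 CPM in YAP 2-week livers and to 153 to 160 CPM in YAP controls. Of these markers 6 rose at 4 weeks and 3 at 2 weeks. Their part in the results for Ptpre, Ptpn13, Ptpn21 and Ptprs was not tested, and in whole liver more cells of a type and more RNA per cell cannot be told apart.

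Promoters of Ptpn21 and Ptprs are shown as the members that rose most firmly and hold a searched motif, in capitals.
Ptpn21 first start, chr12:98737356-98737655, minus strand: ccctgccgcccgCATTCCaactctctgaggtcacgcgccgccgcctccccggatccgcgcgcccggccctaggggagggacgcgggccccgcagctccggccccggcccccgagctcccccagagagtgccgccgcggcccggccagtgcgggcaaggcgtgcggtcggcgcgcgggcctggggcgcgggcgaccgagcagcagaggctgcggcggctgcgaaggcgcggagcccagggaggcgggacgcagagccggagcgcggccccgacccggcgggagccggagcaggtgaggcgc
Ptpn21 second start, chr12:98734596-98734895, minus strand: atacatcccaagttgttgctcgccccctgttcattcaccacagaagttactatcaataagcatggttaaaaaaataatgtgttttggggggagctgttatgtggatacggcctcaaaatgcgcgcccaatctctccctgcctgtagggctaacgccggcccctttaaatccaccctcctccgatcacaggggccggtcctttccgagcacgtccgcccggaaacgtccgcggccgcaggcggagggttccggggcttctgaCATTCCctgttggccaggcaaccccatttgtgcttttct
Ptprs first start, chr17:56476431-56476730, minus strand: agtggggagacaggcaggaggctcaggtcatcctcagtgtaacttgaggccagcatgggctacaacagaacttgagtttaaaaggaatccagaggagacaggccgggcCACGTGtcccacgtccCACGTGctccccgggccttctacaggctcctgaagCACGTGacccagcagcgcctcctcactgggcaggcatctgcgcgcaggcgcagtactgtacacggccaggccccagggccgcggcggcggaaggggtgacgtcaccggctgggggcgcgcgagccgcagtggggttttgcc
Ptprs second start, chr17:56462172-56462471, minus strand: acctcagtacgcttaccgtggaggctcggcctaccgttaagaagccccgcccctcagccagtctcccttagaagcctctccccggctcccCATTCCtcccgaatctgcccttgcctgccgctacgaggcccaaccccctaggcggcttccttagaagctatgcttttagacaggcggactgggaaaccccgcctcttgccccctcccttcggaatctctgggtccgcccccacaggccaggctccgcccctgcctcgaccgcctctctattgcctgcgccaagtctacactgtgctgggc
Each Ptpn21 window held 1 CATTCC, with its first base at -238 in the first and 11 in the second, counted in bases from the start. The first Ptprs window held CACGTG 3 times, at -142, -126 and -91, and the second held 1 CATTCC at -160. Of 31 members with a promoter in the table, 45 promoters in all, CATTCC was in 5 (16.1%: Ptpn18, Ptpn21, Ptpn22, Ptprk and Ptprs), and 16.6% of the 27025 genes and 14.7% of the 32851 promoters in the table hold it. CACGTG was in 1 member, Ptprs (3.23%), against 8.09% of genes and 7.15% of promoters. With the window cut to 100 bases before the start, CATTCC was in 3 members (9.68%: Ptpn18, Ptpn21 and Ptprk) and no longer in Ptprs. In that window 8.13% of genes and 6.94% of promoters hold it. These are descriptions of letters and not of binding.

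Ptprm, a receptor phosphatase that binds itself on the next cell and associates with cadherins, rose at both times. It had 32.2, 21.4 and 18.5 CPM in YAP 4-week livers, 48.0 and 30.3 CPM in YAP 2-week livers, and 9.28 and 7.21 CPM in YAP controls. Induced and control livers did not overlap. The log2 fold change was 1.54 ± 0.30 at 4 weeks (adjusted p = 0.00319) and 2.24 ± 0.33 at 2 weeks (adjusted p = 0.000768), and both calls held when any 1 library was left out. A pseudogene on the same strand covers 457 bases of its exons.

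Ptpro, known as GLEPP1 of the kidney podocyte, was not counted at all in the YAP controls. It had 1.91, 1.32 and 1.45 CPM in YAP 4-week livers and 2.69 and 2.57 CPM in YAP 2-week livers, from 23 to 43 counts a library. Against a floor of 3 counts per control library, 0.304 CPM, it was at least 5.12-fold higher at 4 weeks (adjusted p = 0.00139) and at least 8.66-fold higher at 2 weeks (adjusted p = 0.000976). Both calls held when any 1 library was left out.

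**Figure D2:**
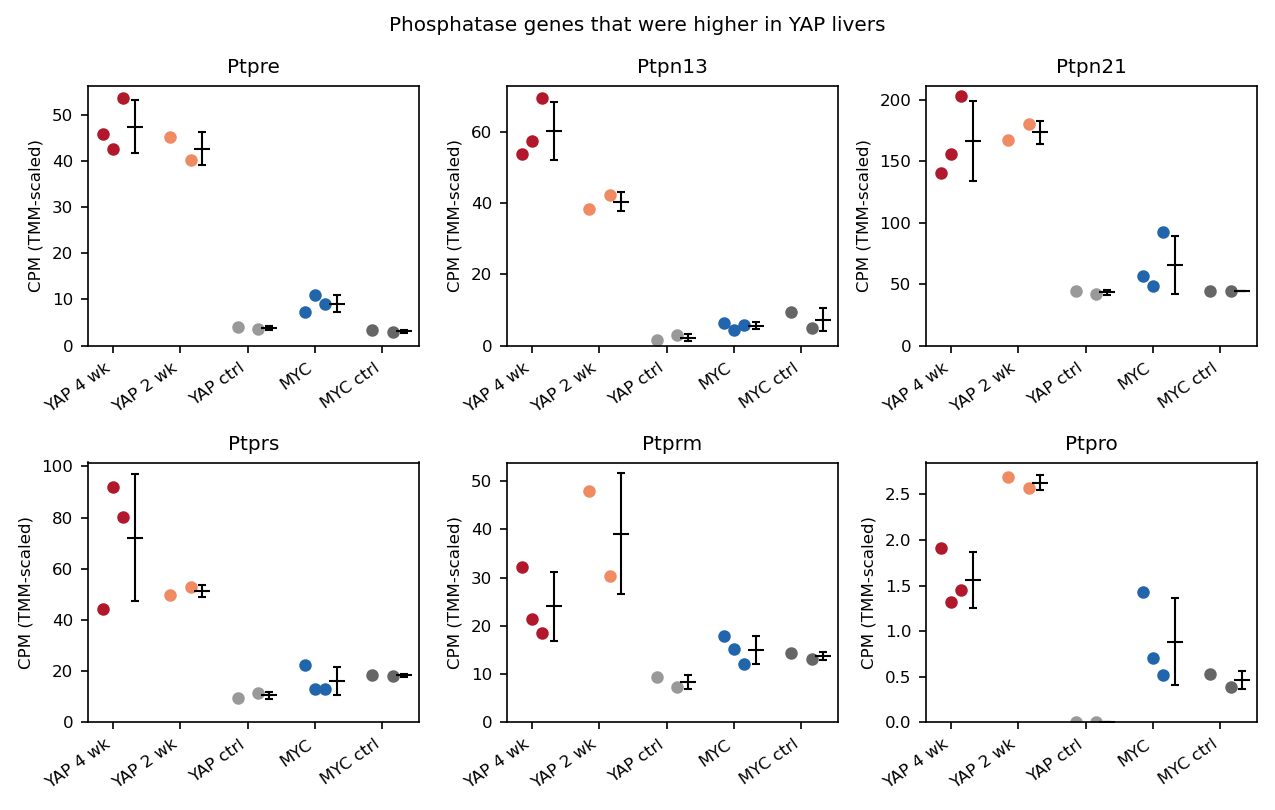
CPM of 6 phosphatase genes in each library (points) by group, with the mean and SD beside them (bars). Each panel has its own axis from 0; the 5 YAP-induced libraries lie above both YAP controls in all 6 panels, while MYC and MYC control libraries overlap for Ptpn13, Ptprs, Ptprm and Ptpro.

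Smaller rises were seen among broadly expressed phosphatases. Ptpn1, the insulin and leptin receptor phosphatase PTP1B, had 49.3, 50.2 and 46.7 CPM in YAP 4-week livers, 57.9 and 63.7 CPM in YAP 2-week livers, and 35.2 and 36.2 CPM in YAP controls. Its log2 fold change was 0.45 ± 0.13 at 4 weeks (adjusted p = 0.0196) and 0.77 ± 0.14 at 2 weeks (adjusted p = 0.00244). The 4-week call was lost when either YAP control or YAP 4-week library 2 was left out.

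Ptpn23, an endosomal sorting phosphatase-like protein, had 45.0, 60.0 and 60.1 CPM in YAP 4-week livers, 41.1 and 46.6 CPM in YAP 2-week livers, and 28.0 and 36.1 CPM in YAP controls. All induced livers were above the controls, with an adjusted p of 0.0123 at 4 weeks, a call lost without YAP control library 1, and 0.138 at 2 weeks. Ptpn12, the focal adhesion phosphatase PTP-PEST, averaged 55.5 ± 6.95 CPM in YAP 4-week livers, 65.8 ± 5.32 CPM in YAP 2-week livers and 39.1 ± 7.28 CPM in YAP controls (adjusted p = 0.042 at 4 weeks and 0.0126 at 2 weeks). Its 4-week call was lost on leaving out any 1 of 7 libraries, and its 2-week call without YAP control library 2 or YAP 2-week library 2. Ptpra averaged 51.2 ± 11.5 CPM in YAP 4-week livers, 58.1 ± 7.15 CPM in YAP 2-week livers and 37.3 ± 2.03 CPM in YAP controls (adjusted p = 0.0764 at 4 weeks and 0.0341 at 2 weeks). Its 2-week call was lost when any library of the YAP 2-week, YAP control or MYC control groups was left out.

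Ptprc, Ptpn6, Ptpn22 and Ptpn7, known mainly from white blood cells, rose at both YAP times. Ptprc encodes CD45, the leukocyte common antigen. It had 48.5, 33.6 and 26.7 CPM in YAP 4-week livers, 61.3 and 80.6 CPM in YAP 2-week livers, and 20.6 and 12.4 CPM in YAP controls. All induced libraries were above the controls and the 2-week libraries were the highest. On the log2 scale Ptprc rose by 1.13 ± 0.30 at 4 weeks (adjusted p = 0.0145) and 2.1 ± 0.33 at 2 weeks (adjusted p = 0.00111).

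Ptpn6 encodes SHP-1, which inhibitory receptors of blood cells recruit. It had 34.9, 27.8 and 25.5 CPM in YAP 4-week livers, 44.1 and 44.4 CPM in YAP 2-week livers, and 18.0 and 16.1 CPM in YAP controls, with the same order of groups as Ptprc. Its log2 fold change was 0.78 ± 0.19 at 4 weeks (adjusted p = 0.00841) and 1.38 ± 0.20 at 2 weeks (adjusted p = 0.000789). Ptpn22, the lymphoid phosphatase that restrains T cell receptor signalling, had 3.3, 3.84 and 2.78 CPM in YAP 4-week livers, 5.53 and 4.36 CPM in YAP 2-week livers, and 1.64 and 0.53 CPM in YAP controls. On the log2 scale it rose by 1.59 ± 0.46 at 4 weeks (adjusted p = 0.0216) and 2.16 ± 0.49 at 2 weeks (adjusted p = 0.00788). Ptpn7, a MAP kinase phosphatase of blood cells, had 1.59, 2.7 and 3.56 CPM in YAP 4-week livers and 1.06 and 3.35 CPM in YAP 2-week livers. In the YAP controls it had 0.0 and 0.424 CPM, which is 0 and 4 counts, so the size of its rise (adjusted p = 0.00818 at 4 weeks and 0.0166 at 2 weeks) is poorly set.

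Monocyte and macrophage markers were also higher in YAP livers. The 10 markers summed to 468 to 769 CPM in YAP 4-week livers, 1060 to 1120 CPM in YAP 2-week livers and 171 to 190 CPM in YAP controls. Of these markers 7 rose at 4 weeks and 8 at 2 weeks. Ptpn7 did not share the order of the YAP times, with a mean of 2.61 CPM at 4 weeks and 2.21 CPM at 2 weeks. The 6 neutrophil markers summed to 53.1 to 159 CPM in YAP 4-week livers, 15.6 to 182 CPM in YAP 2-week livers and 1.7 to 4.64 CPM in YAP controls, where Ngp, Camp and Retnlg were at 0. The 10 T and NK cell markers summed to 2.22 to 6.42 CPM in YAP 4-week livers, 3.95 to 6.23 CPM in YAP 2-week livers and 3.28 to 3.71 CPM in YAP controls. Of the 7 T and NK cell markers that could be tested, 2 were higher and 1 lower at 4 weeks. At 2 weeks 2 were higher and 0 lower. In the YAP controls Cd3d, Cd3g, Cd8a, Cd8b1, Trbc2, Nkg7 and Klrb1c were at 0. The 6 B cell markers summed to 6.45 to 8.58 CPM in YAP 4-week livers, 7.3 to 13.2 CPM in YAP 2-week livers and 3.96 to 9.34 CPM in YAP controls. The part of these cells in the phosphatase levels was not tested. Without YAP control library 2 the 4-week calls of Ptprc, Ptpn22 and Ptpn6 were lost, and without YAP control library 1 that of Ptpn7 (adjusted p = 0.0584). The call of Ptpn22 at 4 weeks was also lost without YAP 4-week library 2. At 2 weeks, Ptpn22 lost its call without YAP control library 2, and Ptpn7 without YAP control library 1 or YAP 2-week library 2. The 2-week calls of Ptprc and Ptpn6 held when any 1 library was left out.

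**Figure D3:**
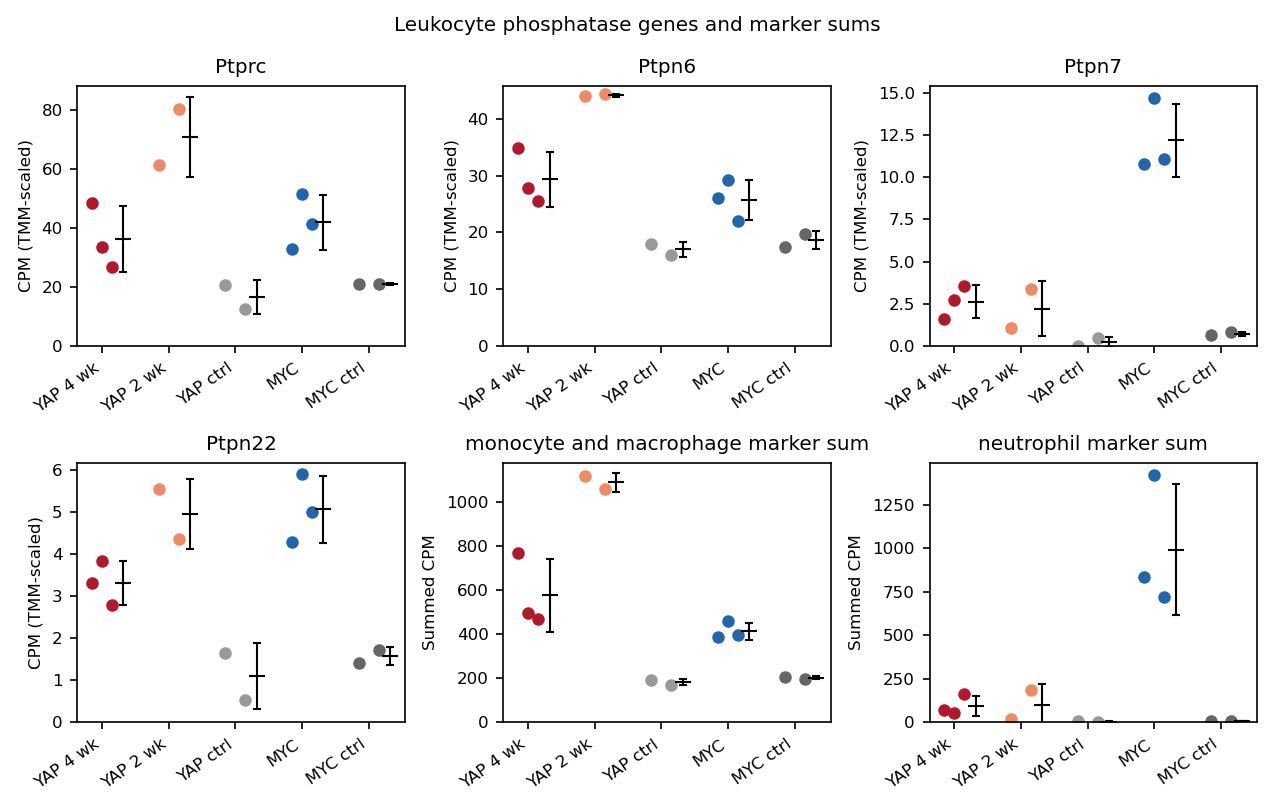
CPM of Ptprc, Ptpn6, Ptpn7 and Ptpn22, and the summed CPM of 10 monocyte and macrophage markers and of 6 neutrophil markers, in each library (points) by group, with mean and SD (bars). Ptprc and Ptpn6 are highest in YAP 2-week livers, like the macrophage sum, and Ptpn7 is highest in MYC livers, like the neutrophil sum. The T and NK cell sum, not drawn, was also highest in MYC livers, at 10.2 to 13.4 CPM and at most 7.41 CPM elsewhere.

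Fewer members fell with YAP. Ptpn3 encodes a FERM and PDZ phosphatase of the membrane skeleton. It had 22, 44.1 and 39.3 CPM in YAP 4-week livers, 32.2 and 25.5 CPM in YAP 2-week livers, and 90.6 and 96.3 CPM in YAP controls. No induced liver was above 44.1 CPM. For Ptpn3 the log2 fold change was -1.41 ± 0.40 at 4 weeks (adjusted p = 0.0215) and -1.70 ± 0.46 at 2 weeks (adjusted p = 0.0201).

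Ptprd, a receptor phosphatase of the LAR group, had 291, 240 and 210 CPM in YAP 4-week livers, 295 and 193 CPM in YAP 2-week livers, and 480 and 437 CPM in YAP controls. Its log2 fold change was -0.89 ± 0.22 at 4 weeks (adjusted p = 0.0107) and -0.91 ± 0.25 at 2 weeks (adjusted p = 0.0195). Ptprb, the endothelial phosphatase VE-PTP that acts on Tek and VE-cadherin, had 130, 90.2 and 54.8 CPM in YAP 4-week livers, 182 and 91.8 CPM in YAP 2-week livers, and 207 and 230 CPM in YAP controls. It was below the controls in all 5 induced livers, with a log2 fold change of -1.25 ± 0.39 at 4 weeks (adjusted p = 0.0304) and an adjusted p of 0.274 at 2 weeks. The 10 endothelial markers summed to 164 to 453 CPM in YAP 4-week livers, 419 to 564 CPM in YAP 2-week livers and 361 to 416 CPM in YAP controls, and 0 of them were called at 4 weeks and 1, higher, at 2 weeks. These falls depended on the scaling: by total counts the 4-week log2 fold change was -0.65 for Ptpn3 (adjusted p = 0.156), -0.17 for Ptprd (0.43) and -0.55 for Ptprb (0.131), and that of Ptprd at 2 weeks -0.40 (0.117). The 4-week calls of Ptpn3 and Ptprb were also lost when either YAP control library was left out, that of Ptprb also without YAP 4-week library 2 or 3, and that of Ptprd without YAP control library 1. At 2 weeks, Ptpn3 and Ptprd lost their calls when either YAP control or YAP 2-week library 2 was left out, and Ptpn3 also without YAP 2-week library 1. Hepatocyte markers summed to 38600 to 77700 CPM in YAP 4-week livers, 75100 to 94200 CPM in YAP 2-week livers and 86300 to 99300 CPM in YAP controls, and of the 10 markers 7 fell at 4 weeks and 4 at 2 weeks. Their part in the falls of phosphatases was not tested.

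The direct comparison of the times called 0 of the 27 members, beside 0.0612% of all genes, with edgeR; 6 members (6.96% of all genes) had an unadjusted p under 0.05, the smallest adjusted p was 0.514, and DESeq2 and limma-voom also called 0. Without YAP 4-week library 1 the count was 1 of 27, Ptprc, which was lower at 4 weeks, beside 2.81% of all genes.

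With MYC, 10 of the 29 tested members were called, 6 higher and 4 lower, beside 18.3% of all genes (9.76% higher and 8.56% lower). The members' median log2 fold change was 0.12 and that of all genes 0.02. Higher were Ptpre, Ptpn1, Ptpn4, Ptpn7, Ptpn22 and Ptprc, and lower were Ptpn3, Ptprg, Ptprj and Ptprk. The count was 5 of 29 without MYC library 2, 1 without MYC control library 1 and 2 without MYC control library 2, beside 9.45%, 4.08% and 4.52% of all genes in those fits. By total-count scaling, which raised the median of all genes by 0.41, the split was 10 higher and 2 lower. Of all genes, 3277 were then higher and 743 lower (22.4% called).

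Ptpre had 7.21, 10.9 and 9.0 CPM in MYC livers, against 3.36 and 2.88 CPM in MYC controls. All MYC livers were above both controls, with a log2 fold change of 1.53 ± 0.22 (adjusted p = 0.0016). This was the 1 call of the 10 that held when any 1 library was left out. Ptpn13 had 6.49, 4.49 and 5.69 CPM in MYC livers, against 9.55 and 4.99 CPM in MYC controls, and the groups overlapped (adjusted p = 0.418).

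Ptpn7 had 10.8, 14.7 and 11.1 CPM in MYC livers, against 0.619 and 0.78 CPM in MYC controls. On the log2 scale it rose by 4.10 ± 0.71 (adjusted p = 0.00364), and without MYC control library 1 the adjusted p was 0.0556. Its neighbour on chromosome 1, Ptprv, which is on the other strand and annotated as a processed transcript, had 1.97, 2.1 and 1.63 CPM in MYC livers, from 28 to 33 counts, against 0.265 and 0.078 CPM in MYC controls (adjusted p = 0.0684). The MYC livers were above the controls for both genes. Ptprv passed the low-count filter only through the MYC livers, with at most 6 counts in any other library. Nothing is therefore read from its p-value.

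Ptprc had 32.9, 51.7 and 41.3 CPM in MYC livers, against 20.8 and 21.1 CPM in MYC controls, a log2 fold change of 1.00 ± 0.30 (adjusted p = 0.0378). Ptpn22 had 4.29, 5.89 and 4.99 CPM in MYC livers, against 1.41 and 1.72 CPM in MYC controls, a log2 fold change of 1.68 ± 0.44 (adjusted p = 0.0229). Ptpn6 had 26.1, 29.2 and 22.1 CPM in MYC livers, against 17.5 and 19.8 CPM in MYC controls, and was not called (adjusted p = 0.101). The neutrophil markers summed to 719 to 1420 CPM in MYC livers and 3.74 to 3.89 CPM in MYC controls, and all 6 rose. The monocyte and macrophage markers summed to 388 to 458 CPM in MYC livers and 197 to 207 CPM in MYC controls, with 3 higher and 1 lower. T and NK cell markers summed to 10.2 to 13.4 CPM in MYC livers and 6.81 to 7.41 CPM in MYC controls, and B cell markers to 11.9 to 14.1 CPM and 9.75 to 12.6 CPM. The part of these cells was not tested. The calls of Ptprc and Ptpn22 were lost when either MYC control or MYC library 2 was left out, and that of Ptprc also without MYC library 3.

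Ptpn1 had 49.6, 45.4 and 44.7 CPM in MYC livers, against 32.4 in both MYC controls, a log2 fold change of 0.52 ± 0.13 (adjusted p = 0.0176). Ptpn4, the FERM and PDZ relative of Ptpn3, had 39.2, 46.1 and 49.9 CPM in MYC livers, against 31.2 and 28.1 CPM in MYC controls, a log2 fold change of 0.60 ± 0.15 (adjusted p = 0.019). Ptpn3 moved the other way and had 31.7, 11 and 14.1 CPM in MYC livers, against 70.8 and 70.3 CPM in MYC controls, a log2 fold change of -1.90 ± 0.40 (adjusted p = 0.0112). None of the 3 genes had MYC livers that overlapped the controls. Their calls were lost when either MYC control library was left out, and that of Ptpn4 also without MYC library 2.

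Ptprg encodes a receptor phosphatase with a carbonic anhydrase-like ectodomain that binds contactins. It had 35.1, 7.71 and 8.3 CPM in MYC livers, against 87.4 and 102 CPM in MYC controls. MYC library 1 stood above the other 2 and below both controls. For Ptprg the log2 fold change was -2.47 ± 0.56 (adjusted p = 0.016), and per kb its rank in the family was 20 in MYC livers and 9 in MYC controls.

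Ptprj encodes CD148, or DEP-1, which dephosphorylates growth factor receptors such as Egfr. It had 82.8, 71.6 and 59.4 CPM in MYC livers, against 120 and 117 CPM in MYC controls, a log2 fold change of -0.73 ± 0.19 (adjusted p = 0.0207). Ptprk, a homophilic adhesion phosphatase, had 86.1, 70.7 and 104 CPM in MYC livers, against 149 and 124 CPM in MYC controls, a log2 fold change of -0.65 ± 0.20 (adjusted p = 0.0429). In both genes each MYC liver was below each control. By total counts Ptprj was at -0.33 (adjusted p = 0.137) and Ptprk at -0.23 (adjusted p = 0.497). The calls of Ptprg, Ptprj and Ptprk were lost when either MYC control library was left out, those of Ptprj and Ptprk also without MYC library 2, and that of Ptprj without MYC library 3. Ptprk lost its call without 6 other libraries too, 5 of them from the YAP model. Over all members, the 9 calls lost without MYC control library 1 had adjusted p values of 0.0556 to 0.292.

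Ptprd and Ptprb, lower with YAP, were also below their controls in each MYC liver without a call. Ptprd had 333, 254 and 295 CPM in MYC livers, against 480 and 419 CPM in MYC controls (adjusted p = 0.079). Ptprb had 152, 84.8 and 80.2 CPM in MYC livers, against 251 and 239 CPM in MYC controls (adjusted p = 0.0529). Endothelial markers summed to 270 to 418 CPM in MYC livers and 539 to 559 CPM in MYC controls, with 1 of 10 lower. Hepatocyte markers summed to 34000 to 57900 CPM in MYC livers and 113000 to 117000 CPM in MYC controls, with 5 of 10 lower, and the part of either cell type was not tested. Ptprm, higher with YAP, had 17.9, 15.1 and 12 CPM in MYC livers, against 14.4 and 13.2 CPM in MYC controls, and the groups overlapped (adjusted p = 0.811).

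**Figure D4:**
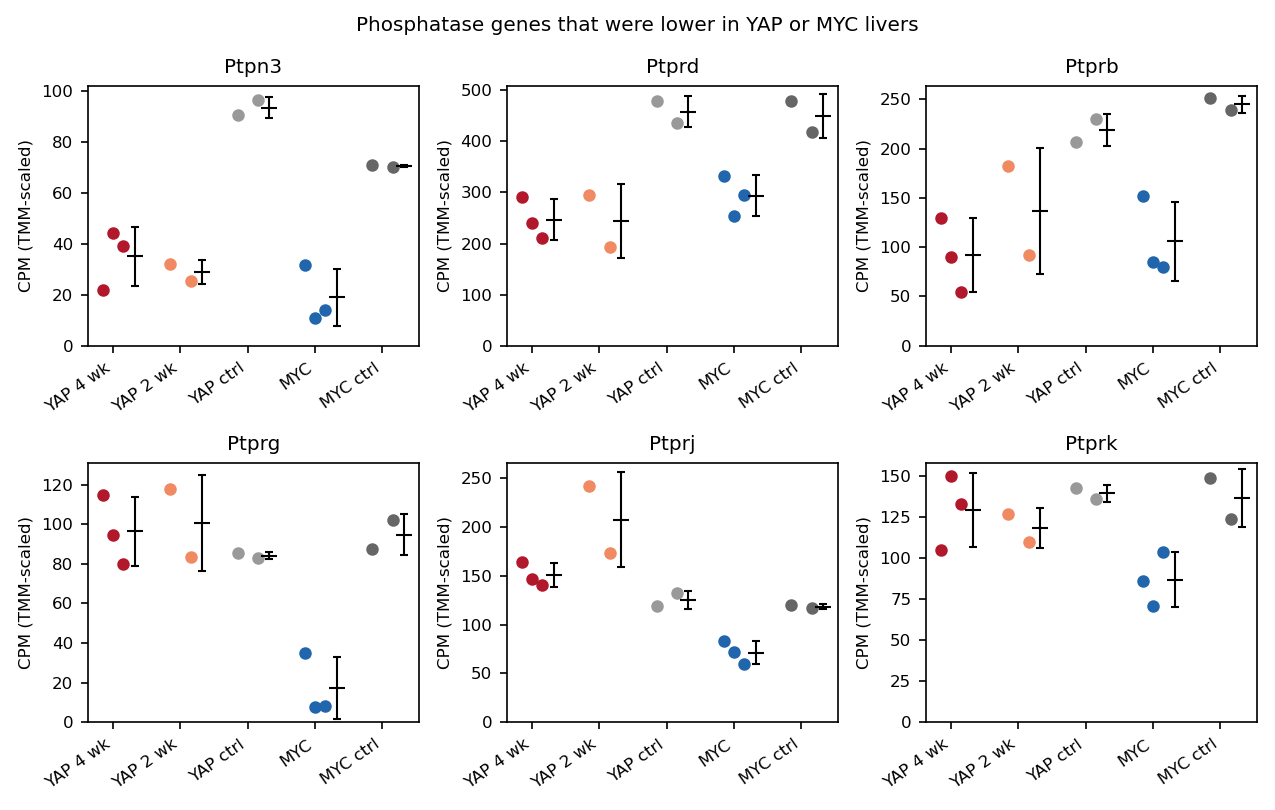
CPM of 6 receptor and non-receptor phosphatase genes in each library (points) by group, with mean and SD (bars); each axis starts at 0. Ptpn3, Ptprd and Ptprb lie below their controls in every YAP-induced and MYC library, and Ptprg, Ptprj and Ptprk do so in MYC libraries.

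The effects of the 2 models were compared as the MYC effect minus the 4-week YAP effect, each against its own controls. Of the 27 members 6 differed, 1 in the positive and 5 in the negative direction, beside 7.48% of all genes (3.15% positive and 4.33% negative). Ptprs differed by -2.97 ± 0.45 (log2, adjusted p = 0.00413): it had 22.4, 13 and 13 CPM in MYC livers and 18.6 and 17.9 CPM in MYC controls, while it rose with YAP. Ptpn21 differed by -1.36 ± 0.36 (adjusted p = 0.043), with 56.8, 48.1 and 92.6 CPM in MYC livers and 44.1 and 44.2 CPM in MYC controls. Ptpro had 1.43, 0.701 and 0.522 CPM in MYC livers and 0.53 and 0.39 CPM in MYC controls, and its effects differed at an adjusted p of 0.0285. Its fitted difference rests on YAP controls with no counts and is not given.

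Ptprj differed by -0.99 ± 0.27 (adjusted p = 0.0462): it fell with MYC, and with YAP it had 164, 147 and 141 CPM at 4 weeks, 242 and 173 CPM at 2 weeks and 119 and 132 CPM in YAP controls. At 2 weeks it was called higher (adjusted p = 0.0239), and at 4 weeks it was not called (adjusted p = 0.31). The 2-week call was lost when either YAP control or YAP 2-week library 1 was left out. Ptpn9, a phosphatase of secretory vesicles, differed by -0.97 ± 0.25 (adjusted p = 0.0386) without a call against either set of controls. By total counts Ptpn9 was called higher at 4 weeks (log2 1.19, adjusted p = 0.00078) and 2 weeks (0.97, 0.00504). Relative to the shift of all genes under that scaling, Ptpn9 was at 0.46 and 0.43. DESeq2 called it lower with MYC (adjusted p = 0.0477). It had 22.9, 20.0 and 18.7 CPM in YAP 4-week livers, 19.2 and 20.8 CPM in YAP 2-week livers and 14.5 and 15.3 CPM in YAP controls. In MYC livers it had 15, 11.6 and 13 CPM, against 18.8 and 18.6 CPM in MYC controls. An antisense gene, Gm10658, shares 170 bases of exon with Ptpn9 and had up to 112 counts. Ptpn4 differed in the positive direction, by 0.79 ± 0.21 (adjusted p = 0.0444), with 31.8, 34.0 and 32.9 CPM in YAP 4-week livers and 39.7 and 35.1 CPM in YAP controls.

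The difference for Ptprs held when any 1 library was left out, and the other 5 did not, with counts from 1 to 7 over the 12 omissions. The count was 1 when any YAP control or MYC control library, YAP 4-week library 3 or MYC library 2 was left out, 2 without YAP 4-week library 2, and 3 without YAP 4-week library 1, either YAP 2-week library or MYC library 3. Over the 12 omissions 1.75% to 10.5% of all genes were called. By total-count scaling, which moved the median of all genes by -0.32, 8 members differed, all negative. Of all genes, 8.52% then differed, 270 in the positive and 1260 in the negative direction. Ptpn4 was then at 0.47 (adjusted p = 0.37). As a description, the difference for Ptpn13 was -5.19 ± 0.46 and for Ptpre -2.11 ± 0.31.

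**Figure D5:**
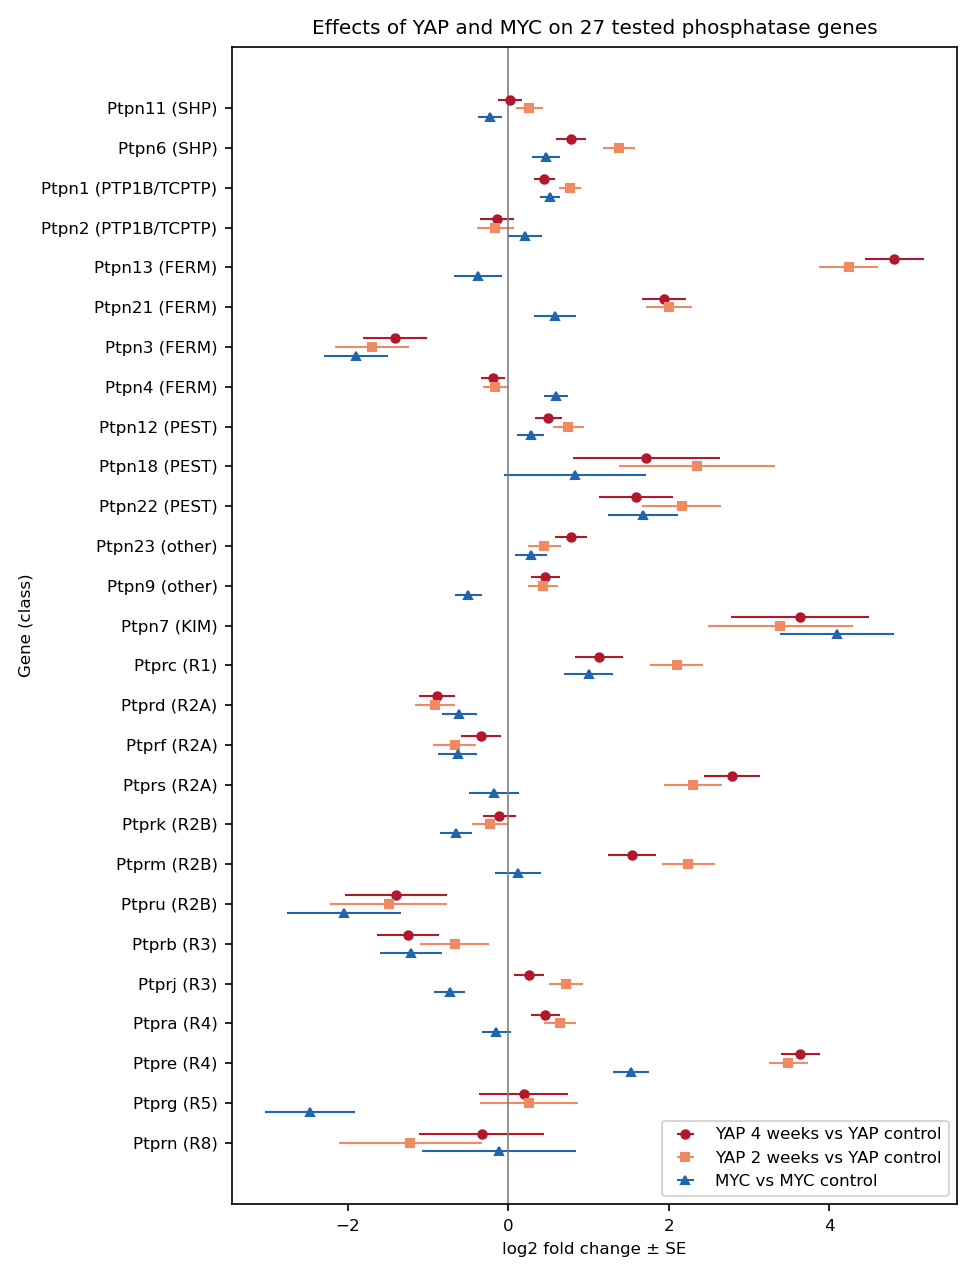
Log2 fold change with its standard error (bars) of 27 tested phosphatase genes in YAP 4-week and YAP 2-week livers against YAP controls and in MYC livers against MYC controls; Ptpro and Ptprv, which have groups with no counts, are left out. Ptpn13 (4.81 at 4 weeks) lies farthest right for YAP, and Ptpn7 (4.10) farthest right and Ptprg (-2.47) farthest left for MYC.

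Several abundant members were not called in any comparison by edgeR with TMM scaling. Ptpn11, or SHP-2, averaged 86.2 ± 14.5 CPM in YAP 4-week livers, 101 ± 3.67 CPM in YAP 2-week livers and 85.0 ± 1.10 CPM in YAP controls, and 82.6 ± 5.67 CPM in MYC livers and 96.9 ± 2.14 CPM in MYC controls. The adjusted p was 0.937, 0.285 and 0.327 for the 3 comparisons with controls. By total-count scaling Ptpn11 was called higher at 4 weeks (log2 0.75, adjusted p = 0.00274) and at 2 weeks (0.79, 0.00433). That scaling raised the median of all genes by 0.73 and 0.54. Relative to this shift Ptpn11 was at 0.01 and 0.25. Ptpn2, the JAK and STAT phosphatase TC-PTP, averaged 14.8 ± 1.95 CPM in YAP 4-week livers, 14.6 ± 2.75 CPM in YAP 2-week livers and 16.3 ± 2.72 CPM in YAP controls, and 24.1 ± 3.12 CPM in MYC livers and 20.9 ± 2.66 CPM in MYC controls (adjusted p = 0.629, 0.631 and 0.534). Ptprf had 256, 447 and 416 CPM in YAP 4-week livers, 322 and 269 CPM in YAP 2-week livers and 453 and 490 CPM in YAP controls, and 350, 248 and 296 CPM in MYC livers and 469 and 451 CPM in MYC controls. Its libraries were below their controls in every case, with adjusted p values of 0.312, 0.0869 and 0.0982.

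Of the rare tested members, Ptpn18, Ptpru and Ptprn were under 4 CPM in every library and were not called. Ptpru, an adhesion phosphatase of the Ptprk group, averaged 0.874 CPM in YAP 4-week livers, 0.83 CPM in YAP 2-week livers and 2.34 CPM in YAP controls, and 0.27 CPM in MYC livers and 1.14 CPM in MYC controls (adjusted p = 0.112, 0.148 and 0.0664). Among the untested 8, Ptprh, an intestinal receptor phosphatase, had 0.334 to 0.445 CPM in YAP 4-week livers, 0.354 and 0.598 CPM in YAP 2-week livers and 0.0 and 0.106 CPM in YAP controls, from at most 10 counts. Ptprz1 of glia, Ptpn5 of brain, Ptprq of the inner ear, Ptprr, Ptprt, Ptprn2 of secretory granules and Ptpn20 were at or under 1.13 CPM in all libraries.

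Genes that work with the family were counted in 7 lists, chosen with results of these data known, and 33.8% of all tested genes were called at 4 weeks of YAP, 27.8% at 2 weeks and 18.3% with MYC. A list's share near these is not a result about the list. Of 10 MAP kinase phosphatases, 3 were higher and 0 lower with 4 weeks of YAP, 4 higher and 0 lower with 2 weeks, and 3 higher and 2 lower with MYC. Dusp8, which acts on JNK and p38, averaged 7.26 ± 1.25 CPM in YAP 4-week livers, 9.2 ± 1.51 CPM in YAP 2-week livers and 0.56 ± 0.108 CPM in YAP controls (log2 3.68 ± 0.51 and 4.02 ± 0.54). Dusp1 fell with MYC, at 19.8 ± 4.96 CPM in MYC livers and 90.4 ± 4.78 CPM in MYC controls (adjusted p = 0.0164). Of 16 tested phosphatases of other classes, 3 were higher and 3 lower at 4 weeks, 5 higher and 3 lower at 2 weeks, and 6 higher and 2 lower with MYC. Ptpmt1, the mitochondrial lipid phosphatase, fell with YAP to 12.9 ± 0.48 CPM at 4 weeks and 13.9 ± 0.431 CPM at 2 weeks, against 32.0 ± 3.11 CPM in YAP controls. Cdc25a, the activator of cyclin-dependent kinases, averaged 34.6 ± 8.02 CPM in MYC livers and 6.95 ± 0.791 CPM in MYC controls (adjusted p = 0.000575).

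Of the 10 Src family kinases with Csk, 3 rose at 4 weeks of YAP, 5 at 2 weeks and 2 with MYC, and 0 fell. Src averaged 25.3 ± 10.8 CPM in YAP 4-week livers, 19.7 ± 6.17 CPM in YAP 2-week livers and 3.37 ± 2.21 CPM in YAP controls (adjusted p = 0.00196 and 0.00566), and its MYC effect differed from its YAP effect by -3.04 ± 0.67 (adjusted p = 0.0218). Of 26 receptor tyrosine kinases, 7 were higher and 2 lower at 4 weeks, 6 higher and 2 lower at 2 weeks, and 2 higher and 7 lower with MYC. Ddr1, a collagen receptor, averaged 84.0 ± 23.4 CPM in YAP 4-week livers, 40.2 ± 19.0 CPM in YAP 2-week livers and 1.49 ± 0.903 CPM in YAP controls. Egfr, a target of Ptprj, averaged 128 ± 23.0 CPM in MYC livers and 2360 ± 607 CPM in MYC controls (log2 -4.20 ± 0.68, adjusted p = 0.00329).

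Of 23 adaptors, JAKs and STATs, 7 were higher and 1 lower at 4 weeks, 3 higher and 2 lower at 2 weeks, and 2 higher and 2 lower with MYC. Gab1, the docking protein that binds Ptpn11, averaged 65.3 ± 10.0 CPM in YAP 4-week livers, 69.2 ± 8.60 CPM in YAP 2-week livers and 26.8 ± 1.13 CPM in YAP controls (adjusted p = 0.000299 and 0.0004). Of 10 tested receptors that recruit SHP phosphatases, 5 rose at 4 weeks, 9 at 2 weeks and 4 with MYC, and 0 fell. Sirpa, the myeloid receptor for CD47, averaged 107 ± 7.71 CPM in YAP 4-week livers, 130 ± 15.2 CPM in YAP 2-week livers and 27.6 ± 5.62 CPM in YAP controls, and 100 ± 11.2 CPM in MYC livers and 40.6 ± 3.43 CPM in MYC controls. Most of these receptors belong to myeloid cells, whose marker sums are given above. Of 11 tested ligands and partners of receptor phosphatases, 4 were higher and 1 lower at 4 weeks, 3 higher and 1 lower at 2 weeks, and 3 higher and 2 lower with MYC. Il1rap, a partner of Ptprd at synapses, fell with YAP to 60.5 ± 18.9 CPM at 4 weeks and 56.7 ± 24.3 CPM at 2 weeks, against 223 ± 12.4 CPM in YAP controls. Gpc4, a glypican, averaged 40.2 ± 10.5 CPM in MYC livers and 111 ± 8.08 CPM in MYC controls (adjusted p = 0.00514).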

How the data were processed

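RNA of 12 mouse livers was sequenced after TRIzol and RNeasy extraction with DNase and the Nugen Ovation Mouse RNA-seq kit, per the labels' protocols. Per the submitters' processing notes, the tools were DESeq2 1.20.0, featureCounts 1.6.3, HISAT2 2.1.0 and Trim Galore 0.4.1 on the build GRCm38 (mm10); the notes give no role or order. The deposited values are raw counts per gene symbol, 1 table a library, made by the authors. The annotation release and the strand setting are not given in the sources used here, so genes that overlap on the other strand are uncertain.

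From these counts, edgeR 4.0.16 was fitted to all 12 libraries with 1 mean per group, TMM scaling, filterByExpr and the robust quasi-likelihood test, two-sided, with Benjamini-Hochberg adjustment over 17964 genes. The common biological coefficient of variation was 31.5% with 7 residual degrees of freedom. CPM are TMM-scaled. Replicates of a group differed beyond counting noise (chi-square per degree of freedom from 11.16 to 107.039). Gene positions and exon lengths came from GENCODE vM21 and promoters from RefSeq, GRCm38.p6. Alternatives were DESeq2 1.42.0 (Wald test, size factors), limma-voom (limma 3.58.1), total-count scaling, no low-count filter, each model fitted alone, the replicate number as a block, and each library left out. The pipeline was tested on simulated data.

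The members and all gene lists were chosen with earlier results of these data known. Values in every library were given for Ptpre and Ptpn13, for members called with MYC or in the difference of effects, and for the 12 members with the largest called changes with YAP. From related lists, genes were taken among those with the smallest p. Replicate numbers of the titles did not pair libraries: same-numbered libraries correlated at -0.032 to 0.082 in their deviations from group means. The floor of 3 counts covers counting error only.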

Additional observations from a re-analysis of the deposited data

Results flagged for a closer look

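For 6 phosphatase genes of 27 the MYC effect differed from the 4-week YAP effect by a test of the difference itself (edgeR's quasi-likelihood test, adjusted over all genes). Of all genes, 7.48% differed by the same test. Among the 6, only the difference for Ptprs held whichever 1 library was left out. Ptprs rose with YAP and was not called with MYC, and the effects differed at an adjusted p of 0.00413. Ptpro was at an adjusted p of 0.0285, Ptpn9 at 0.0386, Ptpn21 at 0.043 and Ptprj at 0.0462, all with the lower effect in MYC livers. Ptpn4 was at 0.0444 with the higher effect in MYC livers. The models also differ in the sex of the induced livers and in the age at induction, which cannot be told apart from the transgene here.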

How the results depend on the processing

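The counts of called members stayed within 1.5 times the reported ones under each alternative that kept all libraries. With the replicate number as a block they were 13 of 27 at 4 weeks of YAP, 14 at 2 weeks, 11 of 29 with MYC, 0 between the YAP times and 6 for the difference of effects. Of all genes, the block fit called 28.2%, 27.2%, 14.7%, 0.0724% and 7.4%, in the same order. Leaving out 1 library at a time gave 7 to 14 calls at 4 weeks, 8 to 15 at 2 weeks, 1 to 14 with MYC, 0 to 1 between the times and 1 to 7 for the difference. A group of 2 is then 1 library, assumed to vary like the others. The shares of all genes called also fell in the fits without a control library. Under the block Ptpn3 at 4 weeks was at an adjusted p of 0.0739 and Ptprb with MYC at 0.033. Of the 6 differences under the block, 4 were among the reported ones: Ptpn4 (0.0596) and Ptpn9 (0.0541) were lost, and Ptprg (0.0465) and Ptprm (0.0141) were gained. Ptprg was also called for the difference by total-count scaling (0.0218), DESeq2 (0.00653) and limma-voom (0.0276), and Ptprm by total-count scaling (0.00862), DESeq2 (0.0269) and without the low-count filter (0.0158).

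The 4-week YAP log2 fold change of Ptpn11, 0.02, was -0.01 when the YAP groups were fitted alone. With 1 library left out it was between -0.13 (without YAP 4-week replicate 1) and 0.10. By total-count scaling Ptpn11 was called higher, at 0.75 (adjusted p = 0.00274) at 4 weeks and 0.79 (0.00433) at 2 weeks. The 4-week YAP log2 fold change of Ptprk, -0.11, was 0.64 by total-count scaling (adjusted p = 0.0397). With 1 library left out it was between -0.23 and 0.02 (without YAP 4-week replicate 1). Total-count scaling gave 4.39 for Ptpre and 5.56 for Ptpn13 at 4 weeks and 4.02 for Ptpre at 2 weeks. It also called Ptprj (adjusted p = 0.000628), Ptpra (0.000543) and Ptpn9 (0.00078) higher at 4 weeks. At 2 weeks it also called Ptpn9 (0.00504), Ptpn18 (0.0448) and Ptpn23 (0.0206) higher. With MYC it also called Ptpn6 (0.0104), Ptpn12 (0.0222), Ptpn21 (0.0407) and Ptprv (0.0447) higher, and for the difference Ptpra (0.0431). The cause was not tested, beyond the shift of all genes that this scaling carries. Ptprv with MYC was called by DESeq2 (adjusted p = 0.0236) and limma-voom (0.0433). It passed the low-count filter only through the MYC livers, with at most 6 counts in any other library. No support is therefore read from its calls. Ptpn18 at 2 weeks was called by the same tools (0.0384 and 0.0483). DESeq2 also called Ptprb (0.019), Ptpn9 (0.0477), Ptprd (0.0458) and Ptpru (0.0488) lower with MYC. Ptprb was also called with the MYC groups fitted alone (0.0334). Other calls were lost under alternatives that kept all libraries, beside those given with the results. With limma-voom these were Ptpn12 at 4 weeks (adjusted p = 0.0531), Ptpn7 at 2 weeks (0.0508), and Ptpro (0.0554), Ptpn4 (0.0634) and Ptpn9 (0.0575) for the difference. Without the low-count filter they were Ptpn1 (0.0846), Ptpn3 (0.0817), Ptpn12 (0.0656) and Ptprb (0.103) at 4 weeks, Ptpn3 at 2 weeks (0.0759), Ptpn1 (0.0765) and Ptprg (0.055) with MYC, and Ptpn4 (0.117) and Ptpn9 (0.0819) for the difference. With the groups of each model fitted alone they were Ptpn12 (0.0771) and Ptpn22 (0.0562) at 4 weeks, Ptpn7 (0.0625) and Ptpra (0.0802) at 2 weeks, and Ptprg (0.0891) and Ptprk (0.0697) with MYC. The cause was not tested. With 2 controls in each model, 4 of 14 calls at 4 weeks, 7 of 14 at 2 weeks, 1 of 10 with MYC and 1 of 6 for the difference held whichever 1 library was left out. The 8 members with at most 17 counts in any library were removed by the low-count filter, and no test of them is given.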
